A study of Mus musculus with 8 samples.

Results

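The genes described here copy DNA or prepare cells to do so: 37 genes of the passage from G1 into S phase and of DNA replication. They were taken as a fixed list of names, and every probe set with the single symbol of a member was used, which gave 83 probe sets for the 37 genes, out of 45037 probe sets and 18193 named genes on the arrays. RNA was taken from 4 primary cultures, grown from muscles of the mouse hind limb and described as putative muscle-derived stem cells. Each culture was hybridised to an MOE430A and an MOE430B array. Replicates 2 and 3 of PP6 had been enriched by preplating, in which cells that stick early to the plastic are left behind and late ones carried on. No purity was estimated for them, and they gave RNA at 35 and 15 ng/ul. Replicates 2 and 3 of MACS were selected with magnetic beads as Sca1-positive and CD45-negative cells, with over 80% and under 1% positive cells in flow cytometry. They gave RNA at 55 and 65 ng/ul. All cultures grew in F10 Ham medium with 20% serum, and both preparations are labelled as holding contaminating muscle cells. Strain, age and the number of animals are not given in the sources used here, so the replicates may share animals and p-values measure only the spread between these cultures. The question is how far cells obtained by preplating differ in replication genes from cells selected for Sca1.

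A cell that commits to division first licenses its origins: the origin recognition complex, with Cdc6 and Cdt1, loads the ring of Mcm2 to Mcm7 onto DNA. In S phase Cdc45 and the GINS complex turn that ring into the active helicase, polymerases copy the strands while held by the sliding clamp Pcna, and nucleotide-making enzymes supply the building blocks. Many of these genes are switched on together by E2F transcription factors when cyclin kinases release them from Rb proteins. In muscle, precursor cells lose this programme when they leave the cell cycle to fuse into fibres.

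Replication genes were mostly lower in PP6 than in MACS. With 1 probe set standing for each gene and no filter on signal, 32 of the 37 members had a negative log2 difference (PP6 minus MACS), with a median of -0.71. Both PP6 values lay below both MACS values for 23 members, against 18.1% of all 18193 genes, and no member showed the opposite order. In that count Orc1 was represented by a dim MOE430A probe set, below the array median in all cultures (0.01). Only probe sets brighter than their array's median in 2 or more cultures were tested. At least 1 such probe set was found for 33 members, 28 of which were negative, with a median of -0.69 beside 0.02 for the 12278 genes tested. Both PP6 values were below both MACS values for 20 of the 33, where 21.9% of all tested genes had that pattern. The opposite pattern was found for 1 member, Orc1, and for 23.8% of all tested genes. Only Pola1 among the 33 had both PP6 signals under the array median. It then passed only if both MACS signals lay above theirs, and array medians differed little, so the filter all but fixed its sign.

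Single genes could not be called. In limma's fit 0 of 23963 probe sets (0.0%) reached an adjusted p under 0.05 in either direction, and 2760 had an unadjusted p under 0.05. The representative probe sets of the members had adjusted p-values between 0.314 and 0.996, and the smallest over all 58 tested member probe sets was 0.256. None can be called changed in that fit. At an unadjusted p under 0.05, 11 members were lower in PP6, beside 5.44% of all tested genes, and 1 was higher, beside 5.81%. The 11 were Mcm3, Mcm4, Mcm5, Mcm6, Mcm7, Cdt1, Gins2, Pcna, Rrm1, Rrm2 and Uhrf1, and the 1 was Orc1. That count of 11 was 3 without PP6 replicate 3 and 5 without MACS replicate 3. For any single value, the smallest two-sided p that exact permutation of these cultures allows is 33.3%. In bulk RNA, fewer dividing cells and less of each RNA per cell cannot be told apart.

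**Figure D1:**
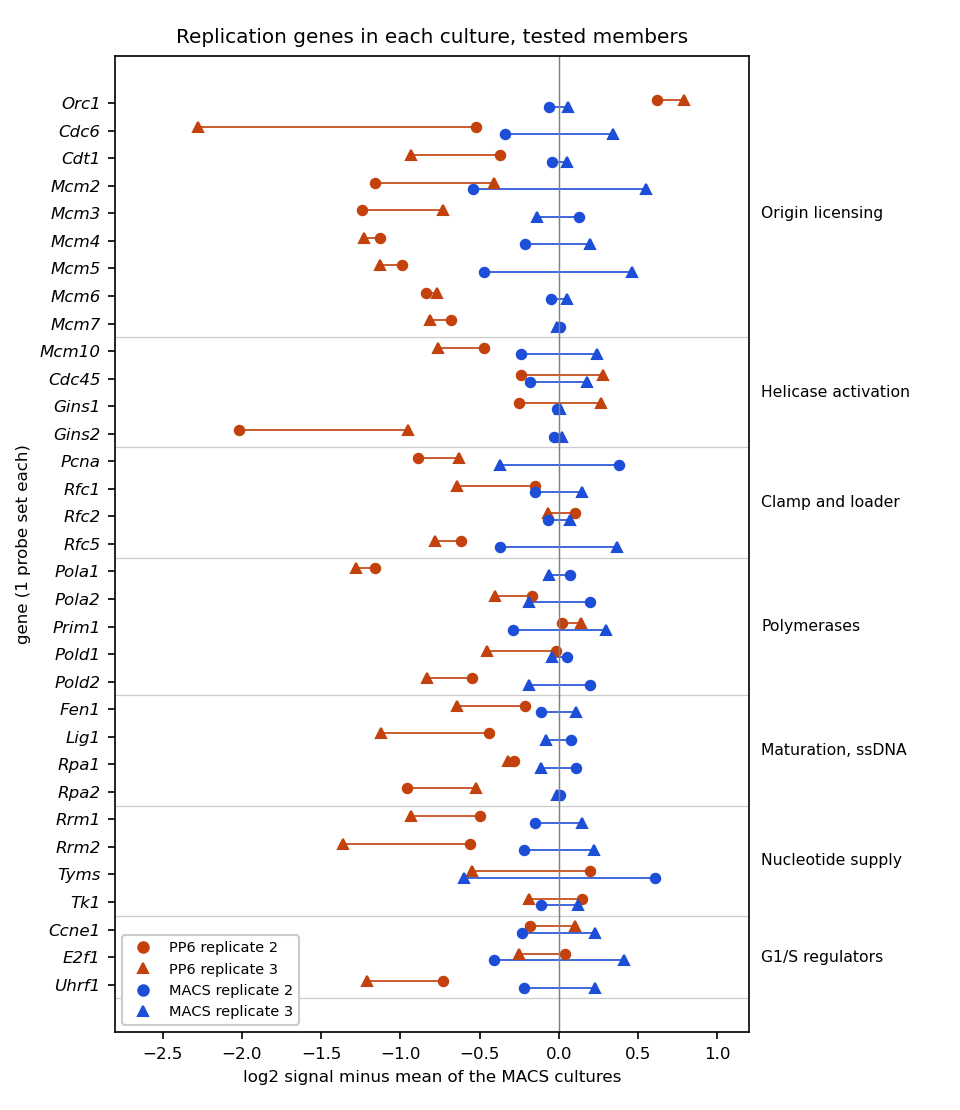
Log2 signal of the 33 tested members in each of the 4 cultures, relative to the mean of the MACS cultures (1 probe set per gene, genes grouped by role). Circles are replicate 2 and triangles replicate 3; in 20 genes both PP6 points lie left of both MACS points, and in Orc1 alone both lie right of them.

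The RefSeq promoters of the members, lower in PP6 or not, were searched on both strands for 4 E2F words: TTTCCCGC, TTTCGCGC, TTTGCCGC and TTTGGCGC. Each promoter ran from 250 bases before to 50 after the start (GRCm38.p6). Promoters were found for 31 of the 37 members, and 12 of these genes (38.7%) held at least 1 word, beside 2.6% of the 27025 genes in the table. Among the 8 licensing genes with a promoter, 7 held a word, Mcm2 being the exception. The CCAAT box was in 61.3% of members and 41.1% of all genes. The CHR element TTTGAA, known from promoters of mitotic genes, was in 12.9% of members and 20.2% of all genes. Of the 12 genes with an E2F word 11 were tested, 10 of them negative, with a median difference of -0.80. Without a word 16 of 18 were negative, with a median of -0.40. Another 6 members, Gins2 and Mcm4 among them, had no promoter to search. Of these 4 were tested, 2 of them negative, with a median of -0.58. The split by word was not tested. Word and role cannot be told apart in it, since 7 of the genes with a word are licensing genes. Pola1, whose sign the filter all but fixed, is among the 10 negative ones. Only these 4 words were searched, so a gene without them is not shown to lack an E2F site. The word matches are a description and not evidence of binding. The share of members with a word belongs to the gene list and does not depend on the values in these cultures.

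The stretches before the start site that carry the words in 5 licensing genes, Pola1 and Uhrf1 are given 5′ to 3′ on the gene's strand, with E2F words in capitals. They lie at chr8:75109336-75109387 (plus strand, Mcm5), chr1:128359725-128359835 (minus, Mcm6), chr5:138172021-138172068 (minus, Mcm7), chr11:98907993-98908040 (plus, Cdc6), chr4:108579407-108579453 (plus, Orc1), chrX:93632266-93632313 (minus, Pola1) and chr17:56304108-56304155 (plus, Uhrf1). By representative probe set Orc1 was higher in PP6 (0.71) and the others of this set were lower. The filter all but fixed the sign of Pola1, and its other tested probe set gave 0.85. In Mcm5 and Mcm6 a word on each strand overlaps, which makes a run of 12 capitals.
Mcm5: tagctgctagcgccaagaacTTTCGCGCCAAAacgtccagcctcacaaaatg
Mcm6: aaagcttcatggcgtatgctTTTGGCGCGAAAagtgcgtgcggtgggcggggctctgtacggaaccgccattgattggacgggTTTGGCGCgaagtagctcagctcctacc
Mcm7: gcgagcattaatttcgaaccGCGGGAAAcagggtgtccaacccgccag
Cdc6: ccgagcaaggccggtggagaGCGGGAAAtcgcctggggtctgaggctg
Orc1: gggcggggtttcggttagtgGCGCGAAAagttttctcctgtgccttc
Pola1: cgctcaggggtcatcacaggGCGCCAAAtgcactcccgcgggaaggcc
Uhrf1: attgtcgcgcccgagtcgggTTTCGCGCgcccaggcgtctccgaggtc

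Origin licensing genes were mostly lower in PP6. Of 9 members 8 were negative, 7 had both PP6 values below both MACS values, beside 21.9% of all tested genes, and the median was -0.80. Mcm4, a subunit of the helicase ring, had log2 signals of 10.68 and 10.58 in PP6 replicates 2 and 3, against 11.60 and 12.01 in MACS replicates 2 and 3. The PP6 cultures lay close together and well under both MACS cultures, a difference of -1.18 ± 0.27 (SE) or a PP6 to MACS ratio of 0.44, with a limma adjusted p of 0.314. The other Mcm4 probe set gave 10.20 and 10.18 in PP6, against 11.87 and 11.86 in MACS. Its difference of -1.68 ± 0.25 was the most negative of the 58 tested member probe sets, at an adjusted p of 0.256. With MOE430A fitted alone its adjusted p was 0.0276, the single member probe set to pass the threshold under any alternative fitted by probe set. Mcm7, another ring subunit, had 13.12 and 12.99 in PP6, against 13.81 and 13.79 in MACS, and the groups were separated by more than either one's spread (-0.75 ± 0.19, adjusted p 0.326).

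All 6 ring subunits pointed the same way. The 18 tested probe sets of Mcm2 to Mcm7 had negative differences of -1.68 to -0.05, and in 14 of them (77.8%) the groups did not overlap. PP6 lay below MACS in that way in 24.3% of all tested MOE430A probe sets and 19.3% of those of MOE430B. The 18 come from 6 genes in the same cultures and are not independent. Those of Mcm7 ran from -0.89 to -0.05, and 3 of its 4 did not overlap. For 3 of the 18 (2 of Mcm3 and 1 of Mcm5) both PP6 signals were under the array median, so that the filter all but fixed their sign. Of the other 15, all were negative and 11 did not overlap. Mcm3 gave -0.98 ± 0.32, Mcm5 -1.06 ± 0.41 and Mcm6 -0.80 ± 0.24, with adjusted p-values of 0.383, 0.426 and 0.362. Mcm2 had 11.04 and 11.79 in PP6, against 11.66 and 12.75 in MACS, so that its groups overlapped in the brighter probe set (-0.79 ± 0.45). In its dimmer one they did not, with 9.02 and 9.64 in PP6, against 10.30 and 10.47 in MACS. The single member probe set of the ring that ran the other way belonged to Mcm6 on MOE430B, at 1.18, and was bright enough in PP6 replicate 2 alone, so that it was not tested.

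The loading factors were lower as well, and the origin subunit Orc1 was not. Cdc6, which recruits the ring to the origin, had 9.38 and 7.62 in PP6, against 9.56 and 10.24 in MACS (-1.40 ± 0.75). PP6 replicate 3 lay far below the other cultures, while PP6 replicate 2 was only just under MACS replicate 2. Cdt1, the partner of Cdc6 that is destroyed once S phase begins, had 12.50 and 11.94 in PP6, against 12.83 and 12.92 in MACS (-0.65 ± 0.26). Orc1, the origin recognition subunit whose level varies most over the cycle in mammals, had 11.87 and 12.04 in PP6, against 11.19 and 11.31 in MACS. This is a difference of 0.71 ± 0.23 (adjusted p 0.381) on MOE430B. Its MOE430A probe set was below the array median in all cultures and gave 0.01, with 8.46 and 8.28 in PP6, against 8.56 and 8.17 in MACS.

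Genes that turn the loaded ring into a working helicase were divided, with 2 of 4 negative and a median of -0.30. Gins2, a GINS subunit, had 10.08 and 11.15 in PP6, against 12.07 and 12.12 in MACS. The MACS cultures nearly coincided and both PP6 cultures were under them, by -1.48 ± 0.39 (adjusted p 0.332), the most negative value among the 33 representative probe sets. The other Gins2 probe set gave -0.59 ± 0.30. Mcm10, which helps activate the helicase, had 10.29 and 10.00 in PP6, against 10.52 and 11.00 in MACS (-0.61 ± 0.33). For Cdc45 and Gins1 the groups overlapped, with differences of 0.02 ± 0.41 and 0.01 ± 0.45.

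The sliding clamp was lower in PP6, and its loader subunits were not uniform. Pcna, the ring that tethers polymerases to DNA, had 13.15 and 13.41 in PP6, against 14.42 and 13.67 in MACS (-0.76 ± 0.30, adjusted p 0.427). The groups did not overlap, but MACS replicate 3 stood only a little above PP6 replicate 3. Rfc5, a subunit of the clamp loader, had 10.00 and 9.84 in PP6, against 10.25 and 10.99 in MACS (-0.71 ± 0.38). Rfc2, another loader subunit, had 11.61 and 11.44 in PP6, against 11.44 and 11.58 in MACS. Its 3 tested probe sets gave 0.01, 0.08 and -0.38, so no direction can be given for it. Rfc1, the large loader subunit, gave -0.39 ± 0.29 with overlapping groups. Rfc3 and Rfc4 were too dim to be tested. Their brightest probe sets gave -0.23 and -0.11.

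Among the polymerase genes 4 of the 5 tested members were negative, with a median of -0.29. Pold2, the second subunit of DNA polymerase delta, had 10.64 and 10.36 in PP6, against 11.39 and 11.00 in MACS (-0.69 ± 0.29, adjusted p 0.455). Pola1, the catalytic subunit of the polymerase that starts each new strand with primase, had 8.21 and 8.09 in PP6, against 9.44 and 9.31 in MACS on MOE430A. That is -1.22 ± 0.67, near the array median. Its MOE430B probe set had 10.56 and 11.00 in PP6, against 9.65 and 10.21 in MACS, the opposite direction (0.85 ± 0.36).

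The same split was seen for Pola2, the regulatory subunit of the Pola1 enzyme. Its MOE430A probe set had 9.95 and 9.72 in PP6, against 10.32 and 9.93 in MACS (-0.29 ± 0.36). On MOE430B it had 10.22 and 10.35 in PP6, against 8.13 and 8.24 in MACS, a difference of 2.10 ± 0.50. Both MACS values lay below the array median there, so the filter fixed its sign. Primase subunit Prim1 and Pold1, the catalytic subunit of polymerase delta, gave 0.08 ± 0.29 and -0.24 ± 0.30 with overlapping groups. The other tested Pold1 probe set gave -0.67 ± 0.44, with both PP6 values below both MACS values. Pole, the catalytic subunit of polymerase epsilon, was below the array median in all cultures. Its values were 6.14 and 7.06 in PP6, against 7.84 and 7.37 in MACS.

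Counts of member probe sets are given by array type, and the difference between types was not tested. On MOE430A 43 of 47 tested probe sets were negative, and in 31 the PP6 values lay below the MACS values (66.0%), against 24.3% of all tested probe sets of that array. The opposite order was found in 0 of the 47, against 23.3% of all. On MOE430B 7 of 11 were negative, where 47.6% of all tested probe sets were. There 5 were in the lower and 3 in the higher order, against 19.3% and 21.7% of all, and those 3 belonged to Orc1, Pola1 and Pola2. The filter fixed or all but fixed the sign of 5 of these probe sets. They were 2 of Mcm3 and 1 of Pola1 on MOE430A, and 1 each of Mcm5 and Pola2 on MOE430B. Without them 40 of 44 were negative and 28 in the lower order on MOE430A. On MOE430B 6 of 9 were then negative, 4 in the lower and 2 in the higher order. For the 17 members with several tested probe sets, all were negative in 14 and signs differed in 3: Pola1, Pola2 and Rfc2.

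**Figure D2:**
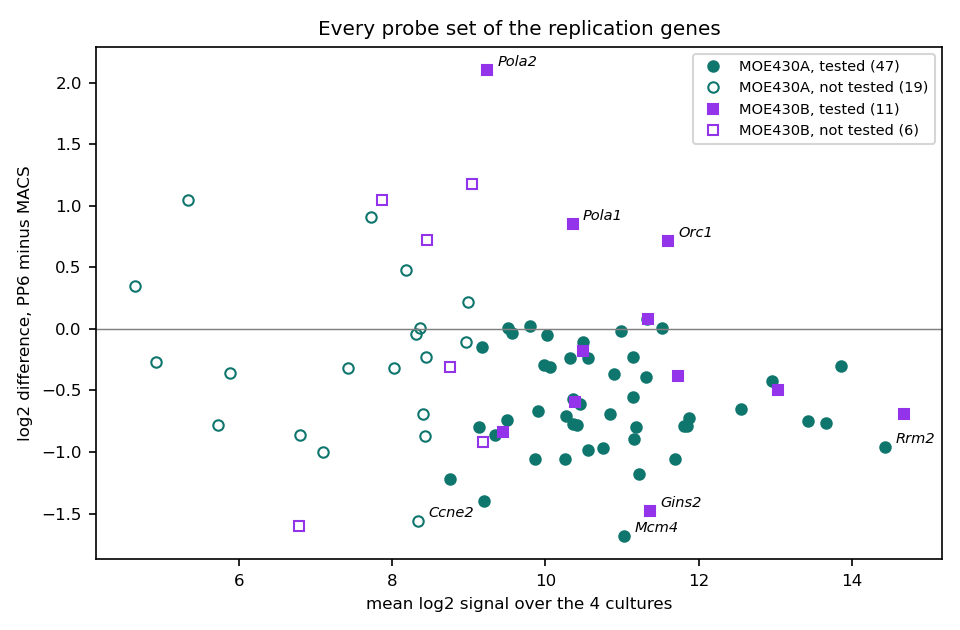
Log2 difference (PP6 minus MACS) of each of the 83 member probe sets against its mean log2 signal over the 4 cultures; filled symbols passed the filter on signal, circles are MOE430A and squares MOE430B. Most tested MOE430A probe sets lie below 0, while the tested probe sets above 0.5 (Pola2, Pola1 and Orc1) are all on MOE430B.

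Genes that finish the lagging strand or cover single-stranded DNA were lower in all 4 cases, with a median of -0.58 and no overlap between groups. That order was found in 21.9% of all tested genes, and 0 of these 4 had an unadjusted limma p under 0.05. Lig1, the ligase that seals Okazaki fragments, had 10.36 and 9.68 in PP6, against 10.88 and 10.72 in MACS (-0.78 ± 0.36, adjusted p 0.480). PP6 replicate 3 was the lowest culture and the MACS cultures were close to each other. Fen1, the nuclease that trims the flaps of those fragments, had 12.95 and 12.52 in PP6, against 13.05 and 13.27 in MACS (-0.42 ± 0.24). There PP6 replicate 2 was only a little under MACS replicate 2. Rpa1 and Rpa2, subunits of the complex that coats single strands, gave -0.30 ± 0.20 and -0.74 ± 0.45.

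The nucleotide-supply genes differed among themselves. Both subunits of ribonucleotide reductase, which makes deoxyribonucleotides, were lower in PP6. Rrm2, the subunit whose level follows S phase, had 14.35 and 13.55 in PP6, against 14.69 and 15.13 in MACS (-0.96 ± 0.33, adjusted p 0.394). Its 3 tested probe sets gave -1.06 to -0.79. Rrm1, the large subunit, had 11.73 and 11.30 in PP6, against 12.08 and 12.38 in MACS (-0.72 ± 0.26, adjusted p 0.412). In both genes PP6 replicate 3 was the lowest culture and MACS replicate 3 the highest. Thymidine kinase Tk1 gave -0.02 ± 0.28 and thymidylate synthase Tyms -0.18 ± 0.51, each with overlapping groups. Tyms rested on 1 tested MOE430B probe set, and a probe set that also carries the symbol of its pseudogene was not used.

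Of the G1/S regulators and chromatin factors, Uhrf1 was lower in PP6 and E2f1 and Ccne1 overlapped between the groups. Uhrf1, which brings the maintenance methyltransferase to newly copied DNA, had 10.50 and 10.02 in PP6, against 11.01 and 11.46 in MACS (-0.97 ± 0.33, adjusted p 0.384). E2f1, the transcription factor that switches on S phase genes, had 10.58 and 10.29 in PP6, against 10.13 and 10.95 in MACS. The PP6 cultures lay between the MACS cultures (-0.11 ± 0.38), and the sign turned to 0.03 without PP6 replicate 3 and to 0.30 without MACS replicate 3. Cyclin E1 gene Ccne1 had 9.41 and 9.69 in PP6, against 9.36 and 9.82 in MACS (-0.03 ± 0.44). A brighter Ccne1 probe set on MOE430B had 12.68 and 12.88 in PP6, against 12.87 and 13.70 in MACS (-0.50 ± 0.32), also with overlap. Ccne2, which encodes the other cyclin E, lay above the array median in MACS replicate 3 alone, so that it was not tested. Its values were 6.87 and 8.25 in PP6, against 8.77 and 9.46 in MACS.

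Cultures of a group also differed from each other. Over the 33 tested members the median gap was 0.34 log2 units between the PP6 cultures and 0.30 between the MACS cultures, and the median size of the difference between group means was 0.71. In 18 members the difference between means exceeded both gaps. Neither this count nor the gaps were computed over all tested genes, so they are no result about the members. PP6 replicate 3 was lower than PP6 replicate 2 in 22 members, and MACS replicate 3 was higher than MACS replicate 2 in 22. Relative to the MACS mean the median member stood at -0.47 in PP6 replicate 2 and -0.64 in PP6 replicate 3, where the median of all tested genes stood at 0.05 and 0.02.

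Other replication genes were mostly negative too. Of 38 tested genes of a further replication list 33 were negative, with a median of -0.37, and 19 had both PP6 values below both MACS values, beside 48.6% negative and 21.9% in that order among all tested genes. None passed the adjusted threshold, and the smallest p-values belonged to Nasp, a histone chaperone, at -1.19 ± 0.28, Top1, a topoisomerase, at -0.89 ± 0.22, Tipin, a fork protection factor, at -1.11 ± 0.30, and Atad2 at -1.08 ± 0.31. Tested probe sets ranged from -1.46 to 1.79 for Nasp and from -1.08 to 0.58 for Atad2, and all 3 of Top1 were negative. The G1/S control list of cyclins, kinases, inhibitors and Rb proteins was mixed, with 10 of 19 tested genes negative and a median of -0.10. In it the D-type cyclins, partners of the kinases that inactivate Rb, did not share a sign. Ccnd2 gave -0.31 ± 0.22, and its 5 tested probe sets ran from -0.71 to 0.04. Ccnd1 had 11.42 and 11.52 in PP6, against 12.19 and 12.66 in MACS (-0.95 ± 0.25). Ccnd3, a cyclin known to accumulate in differentiating muscle cells, had 11.48 and 11.56 in PP6, against 10.81 and 10.80 in MACS (0.71 ± 0.24). E2f3 gave -0.68 ± 0.33, but -0.25 without PP6 replicate 3 and -1.10 without PP6 replicate 2. The inhibitor gene Cdkn1a gave -0.43 ± 0.28, but -0.09 without PP6 replicate 2 and -0.76 without PP6 replicate 3.

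Mitotic genes were also mostly negative. Of 17 tested genes of the G2/M list 16 were negative, with a median of -0.37, and 5 had both PP6 values below both MACS values (29.4%), a share near the 21.9% of all tested genes. Top2a, the topoisomerase that untangles sister DNA, gave -1.17 ± 0.27, though its other tested probe set gave 0.50. Mki67, the gene of the Ki-67 proliferation antigen, gave -0.55 ± 0.28, Nusap1 -0.39 ± 0.31 and Foxm1 -0.37 ± 0.27. The mitotic kinase gene Cdk1 had 11.81 and 11.50 in PP6, against 11.75 and 11.74 in MACS. The MACS cultures themselves differed in this list: replicate 3 was higher than replicate 2 in 15 of the 17 genes, by a median of 0.70, while the same gap was 0.13 over the replication members. The difference between the lists was not tested.

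**Figure D3:**
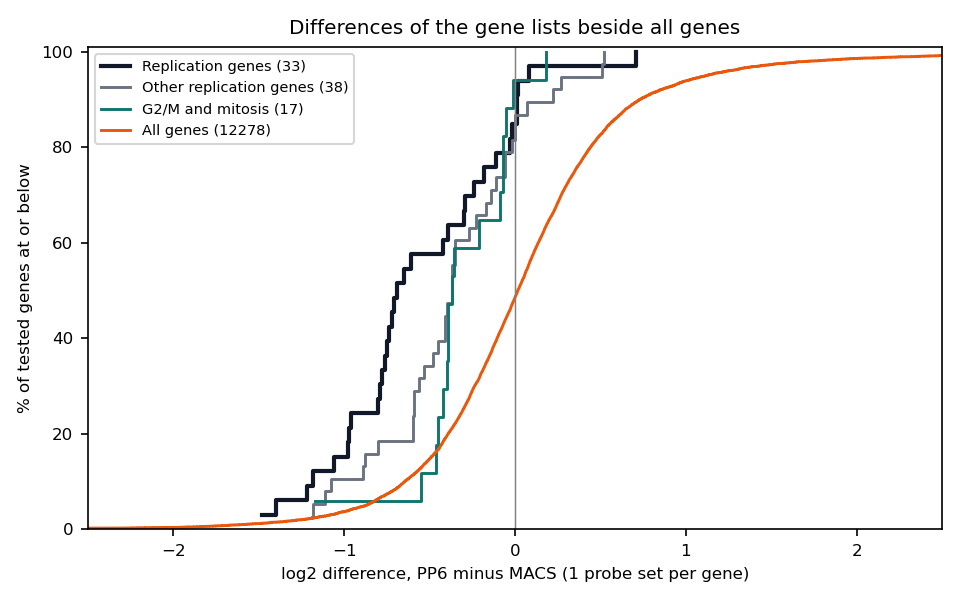
Cumulative share of tested genes (%) at or below each log2 difference, PP6 minus MACS, for the replication genes (33), the further replication list (38), the G2/M list (17) and all genes (12278). The 4 curves cross the 50% line at medians of -0.69, -0.37, -0.37 and 0.02.

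Markers of other cells differed between the preparations as well. All 17 leukocyte markers were higher in both PP6 cultures than in both MACS cultures, with no filter, an order found in 4456 of all 18193 genes. Their summed signal was 114700 and 385600 in PP6, against 12710 and 14880 in MACS. Ptprc, the gene of CD45, had 9.71 and 11.43 in PP6, against 8.25 and 8.67 in MACS, where it lay below the array median. For 16 of 18 muscle differentiation markers both PP6 values lay above both MACS values, with summed signals of 35550 and 95510 in PP6, against 7459 and 9022 in MACS. Summed signals of the 9 endothelial markers were 18620 and 20230 in PP6, against 29910 and 27000 in MACS. Those of the 9 fibroblast markers were 220600 and 215000 in PP6, against 75440 and 127000 in MACS. Of these 9 fibroblast markers 6 were in the higher order in PP6, and Pdgfra, Lum and Pdgfrb overlapped. The brightest fibroblast marker, Dcn, gave 1.23 ± 0.27, though its other tested probe set gave 0.06. Of 7 tested satellite cell and myoblast markers 4 were in the higher order in PP6 and 2 in the lower, with a median of 0.37. Among all tested genes 23.8% were in the higher order and 21.9% in the lower. Desmin gene Des gave 1.27 ± 0.28, though its other tested probe set gave -0.28, and the adhesion molecule gene Vcam1 gave -0.84 ± 0.47. The satellite cell factor Pax7 had 9.78 and 10.57 in PP6, against 11.38 and 12.10 in MACS, and Myod1, the myoblast determination factor, 12.93 and 12.34 in PP6, against 12.92 and 12.73 in MACS. No marker was listed at 0. Ly6a, the Sca1 gene, was not analysed here, so the selected antigen could not be checked. The part of these cells in the difference of the replication genes was not tested.

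**Figure D4:**
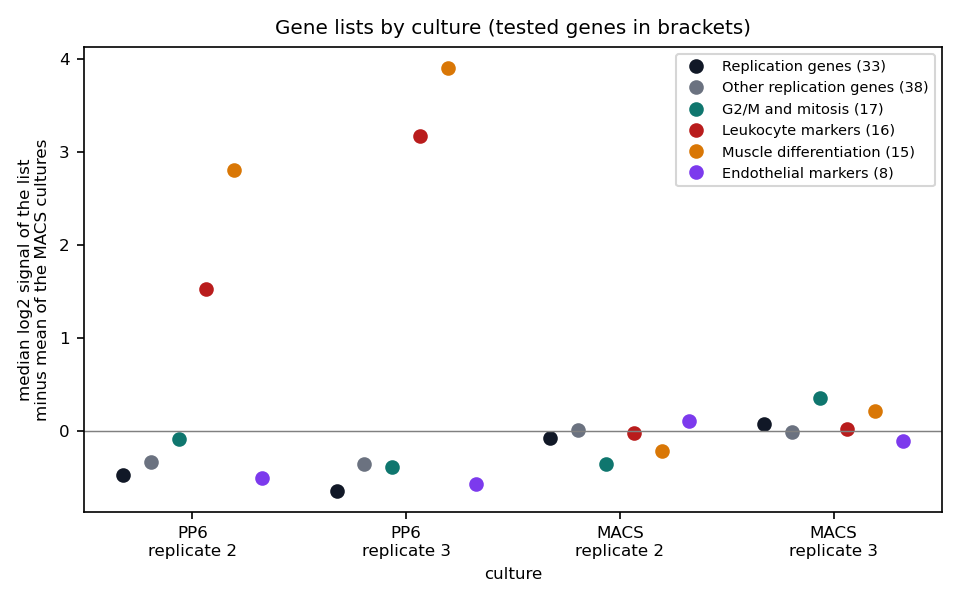
Median log2 signal of 6 gene lists in each culture, relative to the mean of the MACS cultures (so the MACS points of a list are near mirror images). The replication genes stand at -0.47 and -0.64 in PP6 replicates 2 and 3, and the leukocyte and muscle differentiation lists at 1.53 to 3.90 in those cultures.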

How the data were processed

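The authors deposited linear signal intensity for every probe set of each array. Per the submitters' processing notes it came from MAS5, with the version not given in the sources used here. Arrays of a type had equal 2% trimmed means (1500.6 for MOE430A, 1500.2 to 1500.3 for MOE430B), and median log2 signals were 9.14 to 9.30 and 9.60 to 9.79. No detection calls were available, so no fold against a dim signal has a bound. Settings files served only to count lots, days and stations: 1 of each per array type.

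Members were matched through the supplied annotation, with symbols updated by Entrez identifier; Rfc3, Rfc4, Pole and Ccne2 had no tested probe set. Signals were scaled to a common trimmed mean and log2-transformed without a pseudocount. Both array types were stacked, keeping the MOE430A value of the 100 shared probe sets and leaving out 64 controls per type. Differences (PP6 minus MACS) were fitted with limma 3.58.1 (R 4.3.3, lmFit, eBayes with intensity trend, two-sided, Benjamini-Hochberg over 23963 probe sets, threshold 0.05, 5.67 total degrees of freedom). A gene is represented by its tested probe set, MOE430A before MOE430B, then the brightest. The procedure was tested on simulated data.

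Values in every culture were given for the 2 members of each role with the smallest p and for members whose tested probe sets differ in sign; up to 4 genes of each further list are named by the same p. Further genes were named after their values were seen. Members and lists were chosen with earlier results of these data known. Alternatives covered normalization, dim signals, filters, moderation, array type, probe set choice, the replicate number as a block and each culture left out.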

Additional observations from a re-analysis of the deposited data

How the results depend on the processing

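No representative probe set of a member passed the adjusted threshold under any of the 15 alternatives (smallest adjusted p 0.0994, MOE430A alone). Of all member probe sets, the other one of Mcm4 passed with MOE430A alone (-1.68, adjusted p 0.0276). Its adjusted p was 0.0819 with the 75th-percentile filter, and none passed in the other alternatives fitted by probe set. The number of probe sets past the threshold was 0 in the limma fit reported and 23 with signals under the array median raised to it, 5 with a filter at the 75th percentile, 71 with MOE430A alone and 2 with the replicate number as a block. It was 0 to 1 when a culture was left out, and no intensity trend also gave 0. The members' median of -0.69 kept its sign under all alternatives: -0.82 with median centring, -0.56 with that floor, -0.48 with the mean of all probe sets of a gene, and -0.70 to -0.47 with a culture left out. Members with both PP6 values below both MACS values numbered 15 to 25 instead of 20, but the number of members tested changed too. The 15 were out of 22 with the 75th-percentile filter, beside 27.1% of all genes. Without probe sets of suffix _x_at and _s_at it was 17 of 32, beside 22.0%. With MOE430A alone it was 19 of 30, beside 23.0%, and without a filter 23 of 37, beside 18.1%. With a culture left out 23 to 25 members had that order, where 3 values have to be in order instead of 4. There 33.4% to 36.2% of all genes had it instead of 21.9%. Median centring moved the median of all genes from 0.02 to -0.11 and made 32 of 33 members negative instead of 28, with 24 in the lower order beside 29.3% of all genes. Of 410 values of the 28 named genes 403 kept their sign, with none past the threshold, but sizes moved. Pola1 gave -0.08 with the floor, and Gins2 -0.59 without probe sets of suffix _x_at and _s_at. With the mean of all probe sets Nasp gave -0.29, Top2a -0.33 and Atad2 -0.25, and without a filter E2f3 gave -0.10. The 7 that turned were Rfc2 (-0.11 with median centring, -0.10 with the mean of all probe sets, -0.07 without PP6 replicate 2, -0.05 without MACS replicate 2), Pola2 (0.90 with the mean of all probe sets) and E2f1 (0.03 without PP6 replicate 3, 0.30 without MACS replicate 3). With a culture left out Rfc2 ranged from -0.07 to 0.10 and E2f1 from -0.52 to 0.30. The cause was not tested. The replicate numbers pair no samples in the labels, deviations of same-numbered cultures correlated at -0.033 across probe sets, and the block gave no call of a member (median -0.69, 20 members lower). No detection calls were available, so signal over background is unknown.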
